A study of Mus musculus with 46 samples.

Results

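The 10 genes described here, Fgf16, Gkn3, Cyp2s1, Cd72, Il17rc, Gpr139, Slc4a11, Arhgap6, Pkp2 and Zkscan16, were chosen by symbol for large changes with thyroid hormone (TH) in wild-type striatum, out of 57010 genes counted. All 10 were found in the count files, each under 1 gene identifier. The values that chose them are those of the WT striatum libraries, so changes of the 10 genes between WT striatum groups are given as a description, without a test. Untreated WT striatum was not part of the hormone contrast. It was tested against untreated mutant striatum and untreated WT heart. There, 6 of them were higher with hormone (Fgf16, Gkn3, Cyp2s1, Cd72, Il17rc and Gpr139, called hormone-high here) and 4 were lower (Slc4a11, Arhgap6, Pkp2 and Zkscan16, called hormone-low). RNA was sequenced in 46 libraries from heart and striatum of adult mice that carried the HrDR5 allele of the hairless gene Hr on both chromosomes (mutant), or were wild-type (WT). The HrDR5 allele lacks 1 nucleotide at Hr, and the series asked whether this changes the response to TH. In each tissue and genotype, 1 group was fed propylthiouracil (PTU), which blocks hormone synthesis, with low-iodine food for 15 days and then given TH for 24 hours (PTU+TH), 1 group was fed PTU and low-iodine food for 15 days only (PTU), and 1 group was untreated. Every group held 4 libraries, except that there were 3 libraries each of mutant PTU and mutant untreated hearts. The label of heart mutant PTU+TH replicate 1 lacks the 24 hours of TH, and this library was kept in its group. The labels give no age beyond adult and do not say whether heart and striatum libraries share animals, so p-values measure the spread between libraries.

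TH acts mainly through nuclear receptors that bind DNA next to target genes, often at repeats of the letters AGGTCA, and that switch their partners when hormone binds. Hr, itself a known TH target in rodent brain, encodes a corepressor that works with these receptors. The striatum is a forebrain region made mostly of GABAergic projection neurons, and the adult rodent striatum is known to contain many genes that respond to hypothyroidism and to TH. The 10 genes have little in common by function. They encode a growth factor and other secreted or surface proteins (Fgf16, Gkn3, Cd72, Il17rc, Gpr139), an oxidising enzyme (Cyp2s1), a membrane transporter (Slc4a11), a regulator of small GTPases (Arhgap6), a junction protein (Pkp2) and a zinc finger protein (Zkscan16).

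The sequence just before the gene start is shown for the hormone-high genes that have an entry in the RefSeq promoter set (build GRCm38.p6), because these genes moved together in striatum and TH receptors are known to bind AGGTCA. Each run is the 250 bases before the start, 5′ to 3′ on the strand of the gene. Capitals mark GGTCA or its reverse complement TGACC, a shorter match chosen after AGGTCA had been searched.
Gkn3, chr6:87388936-87389185, minus strand: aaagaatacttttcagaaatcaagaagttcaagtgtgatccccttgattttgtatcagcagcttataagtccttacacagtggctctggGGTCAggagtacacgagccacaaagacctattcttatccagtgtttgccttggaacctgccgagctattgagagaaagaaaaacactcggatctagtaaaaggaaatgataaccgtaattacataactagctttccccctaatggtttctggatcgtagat
Cyp2s1, chr7:25816526-25816775, minus strand: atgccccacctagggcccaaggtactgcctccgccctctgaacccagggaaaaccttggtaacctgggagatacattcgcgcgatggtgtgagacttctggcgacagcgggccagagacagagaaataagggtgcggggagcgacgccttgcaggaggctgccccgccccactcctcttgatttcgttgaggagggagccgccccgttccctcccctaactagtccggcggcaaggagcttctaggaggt
Cd72, chr4:43454627-43454876, minus strand: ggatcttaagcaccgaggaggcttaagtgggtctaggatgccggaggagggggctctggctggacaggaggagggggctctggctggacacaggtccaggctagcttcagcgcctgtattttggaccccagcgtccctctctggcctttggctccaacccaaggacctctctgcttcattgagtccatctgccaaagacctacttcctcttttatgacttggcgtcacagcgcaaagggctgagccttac
Il17rc, chr6:113471205-113471454, plus strand: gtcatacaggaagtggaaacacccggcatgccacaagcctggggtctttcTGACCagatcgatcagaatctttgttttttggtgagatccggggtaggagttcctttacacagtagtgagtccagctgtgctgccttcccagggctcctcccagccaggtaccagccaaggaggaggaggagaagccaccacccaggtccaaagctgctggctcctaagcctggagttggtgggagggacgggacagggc
The set held 7 windows for 5 of the 10 genes, the fifth being Arhgap6, a hormone-low gene on chromosome X. AGGTCA on either strand was in 0 of the 7 windows, against 14% of all 32851 windows of this length. The direct repeat of AGGTCA with 4 bases between, searched on both strands, was in 0 of the 7 windows and in 0.0152% of all windows. GGTCA on either strand was in 3 of the 7 windows, those of Gkn3 and Il17rc and 1 of Arhgap6, against 35.2% of all. These counts describe letters in short windows and say nothing of receptor binding elsewhere. Fgf16, Gpr139, Slc4a11, Pkp2 and Zkscan16 are named only.

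Depth was even in striatum, with 9468774 to 13656893 gene counts per library, and ran from 3269806 to 19531711 gene counts in heart, where the lowest belonged to mutant untreated replicate 2. Levels are counts-per-million (CPM) after scaling between libraries of a tissue, and changes are log2 fold changes with their standard error (SE). All 10 genes passed the filter on low counts in striatum and 6 of 10 passed it in heart. The summed level of 11 projection neuron markers was 6304 to 10623 CPM across striatum libraries and 11.2 to 23.2 CPM across heart libraries. That of 7 cortical excitatory neuron markers varied more across striatum libraries, from 30.1 to 418 CPM. It was 30.1 to 317 CPM in WT PTU+TH and 63.3 to 242 CPM in WT PTU striatum. The part of cortical tissue in the levels given here was not tested. The level of Hr itself was 12.4 to 20.1 CPM in mutant PTU+TH hearts, against 69.4 to 80.6 CPM in WT PTU+TH hearts (log2 change -2.22, SE 0.321, adjusted p = 0.00675, edgeR quasi-likelihood test), and 6.71 to 34.3 CPM in mutant PTU+TH striata (13.9 to 34.3 CPM in replicates 2 to 4), against 21.1 to 43.8 CPM in WT PTU+TH striata.

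In the mutant striatum 2 libraries lay against their labels. To place a library, each gene was asked whether it lay within or beyond the range of the WT PTU+TH libraries, within or beyond that of the WT PTU libraries, or between them. The library labelled mutant PTU+TH replicate 1 was at WT PTU levels for 7 of the 10 genes and at WT PTU+TH levels for 0. The library labelled mutant PTU replicate 1 was at WT PTU+TH levels for 9 of the 10 genes and at WT PTU levels for 0. In their own groups, the library labelled mutant PTU+TH replicate 1 was the lowest for 6 of 6 hormone-high genes and the highest for 4 of 4 hormone-low genes, while the library labelled mutant PTU replicate 1 was the highest for 6 of 6 and the lowest for 4 of 4. Mutant PTU replicates 2, 3 and 4 were at WT PTU levels for 1, 2 and 7 of the 10 genes, with 8, 7 and 3 between. Mutant PTU+TH replicates 2, 3 and 4 were at WT PTU+TH levels for 5, 6 and 8, with 4, 4 and 1 between. Of 18 brain genes known to rise with TH, 6 were higher in the library labelled mutant PTU+TH replicate 1 and 12 in the library labelled mutant PTU replicate 1. Of 7 known to fall with TH, 5 were higher in the library labelled mutant PTU+TH replicate 1 and 2 in the other. Such counts were not made over all genes or for other pairs of libraries, so they are given as a description only. Neurogranin, Nrgn, a synaptic gene that responds to TH in brain, had 885 CPM in the library labelled mutant PTU+TH replicate 1 and 1950 CPM in the library labelled mutant PTU replicate 1. The groups were kept as labelled, and calls, log2 changes, overlaps and correlations in mutant striatum are given with and without them. What set them apart was not tested.

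**Figure D1:**
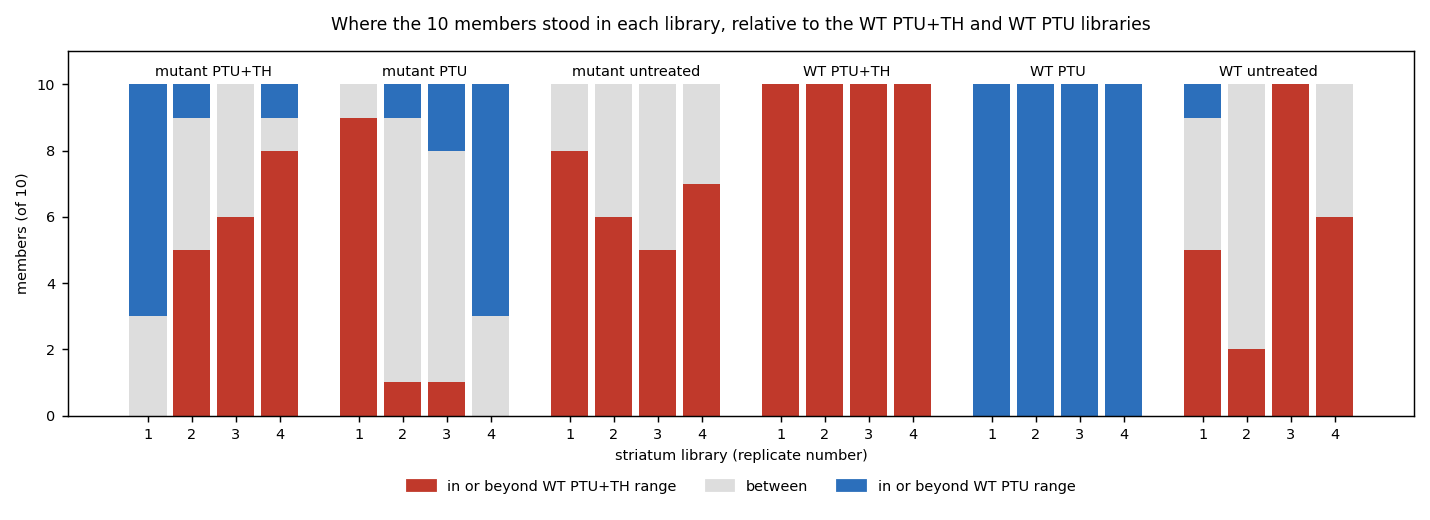
Number of the 10 genes (y axis) that lay in or beyond the range of the WT PTU+TH libraries (red), in or beyond the range of the WT PTU libraries (blue) or between (grey), for each striatum library (x axis, replicate number within group). The WT PTU+TH and WT PTU bars are full by construction, since the genes were chosen there; mutant PTU+TH replicate 1 has 7 genes at the WT PTU level and mutant PTU replicate 1 has 9 at the WT PTU+TH level.

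In WT striatum the PTU+TH and PTU libraries did not overlap for any of the 10 genes. The same fit called 72 of 15670 genes, or 0.459%, in WT PTU+TH against PTU, and non-overlap in either direction was seen for 6.27% of genes; since the 10 genes were chosen in this contrast, nothing is read from either share.

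Fgf16 encodes a secreted fibroblast growth factor of the FGF9 subfamily, known in mice from heart and brown fat. It had 5.03, 4.92, 2.05 and 5.24 CPM in WT PTU+TH striatum, against 0.276, 0.151, 0.171 and 0.299 CPM in WT PTU striatum. Untreated WT striatum had 3.06, 1.85, 4.78 and 2.98 CPM. The PTU libraries stood apart at the low end, and replicate 3 of PTU+TH was below the other libraries of its group and inside the untreated range. The log2 fold change of PTU+TH against PTU was 4.23 (SE 0.617), the highest of the 10, on only 10 counts summed over the 4 PTU libraries. Gkn3 encodes a gastrokine, a secreted protein first known from the stomach, which in mouse brain marks arterial endothelium. Its levels were 3.93, 5.91, 2.23 and 2.62 CPM in WT PTU+TH striatum, against 0, 0.302, 0.343 and 0.0995 CPM in WT PTU striatum, a log2 change of 4.16 (SE 0.748). Untreated WT striatum had 2.79, 2.64, 4.49 and 2.01 CPM, overlapping the hormone-treated libraries. The summed level of 8 other arterial endothelium markers was 292 to 318 CPM in WT PTU+TH libraries and 282 to 370 CPM in WT PTU libraries. The sum is not split by gene here, and the part of arterial cells in the Gkn3 level was not tested.

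Cyp2s1, a cytochrome P450 enzyme whose human form is known to oxidise retinoids, had 45.0, 58.3, 26.5 and 71.5 CPM in WT PTU+TH striatum, against 4.24, 1.59, 5.22 and 7.66 CPM in WT PTU striatum. The log2 change was 3.45 (SE 0.657). Untreated WT striatum had 25.2, 24.6, 53.7 and 18.4 CPM, with replicate 3 far above the rest. Cd72 encodes an inhibitory receptor best known from B cells. It stood at 10.1, 11.0, 8.10 and 12.1 CPM in WT PTU+TH striatum, against 0.645, 0.528, 0.771 and 2.29 CPM in WT PTU striatum, a log2 change of 3.32 (SE 0.683). Of the 7 other B cell markers summed, the level was 15.3 to 32.5 CPM in WT PTU+TH striatum and 8.00 to 9.06 CPM in WT PTU striatum. Nearly all of that sum was Ighm, the heavy chain of immunoglobulin M, at 14.5 to 31.5 CPM in WT PTU+TH libraries and 7.37 to 8.56 CPM in WT PTU libraries, while the defining markers Cd79a and Ms4a1 were at 0 to 0.0931 CPM in WT PTU+TH libraries and 0 to 0.0921 CPM in WT PTU libraries. The part of B cell RNA in the Cd72 level was not tested. In tissue RNA, fewer cells of a type and less RNA per cell cannot be told apart. Exons of Cd72 share 1423 bases with Tesk1 on the opposite strand in GENCODE M21. Whether counting used strand is not given in the sources used here. Tesk1 itself differed by 0.08 on the log2 scale (SE 0.121) in the same contrast. The part of this overlap in the Cd72 level was not tested.

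Il17rc, a subunit of the receptor for interleukin 17A and 17F, had 8.50, 7.09, 3.82 and 8.11 CPM in WT PTU+TH striatum, against 1.93, 1.21, 0.856 and 1.59 CPM in WT PTU striatum. Its log2 change was 2.30 (SE 0.459). Untreated WT libraries had 4.50, 2.38, 5.95 and 3.71 CPM and overlapped the hormone-treated range. Gpr139, a G protein-coupled receptor of the brain that responds to aromatic amino acids, had 46.6, 39.0, 30.3 and 35.0 CPM in WT PTU+TH striatum, against 10.3, 6.87, 14.0 and 11.2 CPM in WT PTU striatum. The log2 change of Gpr139 was 1.83 (SE 0.337), and untreated WT libraries held 28.7, 21.8, 32.5 and 26.3 CPM. Gpr139 is also known from the habenula, and the sum of 7 thalamus and habenula markers was 86.0 to 106 CPM in WT PTU+TH libraries and 88.0 to 118 CPM in WT PTU libraries.

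The 4 hormone-low genes moved less. Slc4a11, a membrane transporter of the SLC4 family whose loss causes a corneal dystrophy in humans, had 1.55, 1.77, 2.14 and 2.87 CPM in WT PTU+TH striatum, against 8.66, 8.45, 5.91 and 5.87 CPM in WT PTU striatum. The log2 change was -1.78 (SE 0.341), and untreated WT libraries held 3.24, 3.70, 2.54 and 2.74 CPM, close to the hormone-treated ones. Arhgap6, which encodes a GTPase-activating protein, had 13.3, 15.5, 16.4 and 11.8 CPM in WT PTU+TH striatum, against 31.3, 24.1, 27.9 and 26.9 CPM in WT PTU striatum. Untreated WT striatum had 19.0, 21.0, 16.3 and 16.1 CPM, and the log2 change of PTU+TH against PTU was -0.95 (SE 0.192). Exons of Arhgap6 share 1335 bases with Hccs on the opposite strand and 90 with Gm27980 on the same strand. Those of Cyp2s1 share 260 bases with Gm26707 on the opposite strand. The part of these overlaps in the levels was not tested.

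Pkp2 encodes plakophilin 2, an armadillo protein of the desmosome that is central to the intercalated discs of heart muscle. It had 4.39, 3.45, 4.75 and 4.65 CPM in WT PTU+TH striatum, against 9.39, 5.28, 10.2 and 8.26 CPM in WT PTU striatum, a log2 change of -0.94 (SE 0.209). Its untreated WT libraries, at 5.76, 5.02, 3.90 and 4.27 CPM, reached into the lower end of the PTU range, the one gene of the 10 for which PTU and untreated libraries overlapped. Zkscan16 encodes a zinc finger protein of the KRAB and SCAN domain family, a kind of DNA-binding protein. Its level was 35.7, 35.6, 49.8 and 35.9 CPM in WT PTU+TH striatum, against 65.2, 65.3, 85.4 and 74.0 CPM in WT PTU striatum, a log2 change of -0.88 (SE 0.159). Untreated WT striatum had 44.9, 42.3, 38.8 and 42.1 CPM.

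The PTU libraries of WT striatum were thus the ones that stood apart. Against untreated libraries they were lower for the 6 hormone-high genes, with log2 changes of -3.85 to -1.37, and higher for the 4 hormone-low genes, at 0.60 to 1.24; the 2 groups did not overlap for 9 of the 10 genes, against 5.34% of all genes. In PTU+TH against untreated libraries all 10 genes overlapped, where 1.33% of all genes did not, with log2 changes of -0.54 to 0.74. These 3 contrasts share the libraries that chose the genes. Libraries also differed in the same way within groups: PTU+TH replicate 3 was the lowest of its group for 6 of 6 hormone-high genes, and untreated replicate 3 was the highest for 6 of 6.

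The sexes were not balanced between the WT striatum groups. Xist, the RNA of the inactive X chromosome in females, was over 100 CPM in 2 of 4 PTU+TH, 4 of 4 PTU and 2 of 4 untreated WT libraries. The part of sex in the levels of the 10 genes was not tested. In mutant striatum each group held 2 libraries of 4 over 100 CPM.

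**Figure D2:**
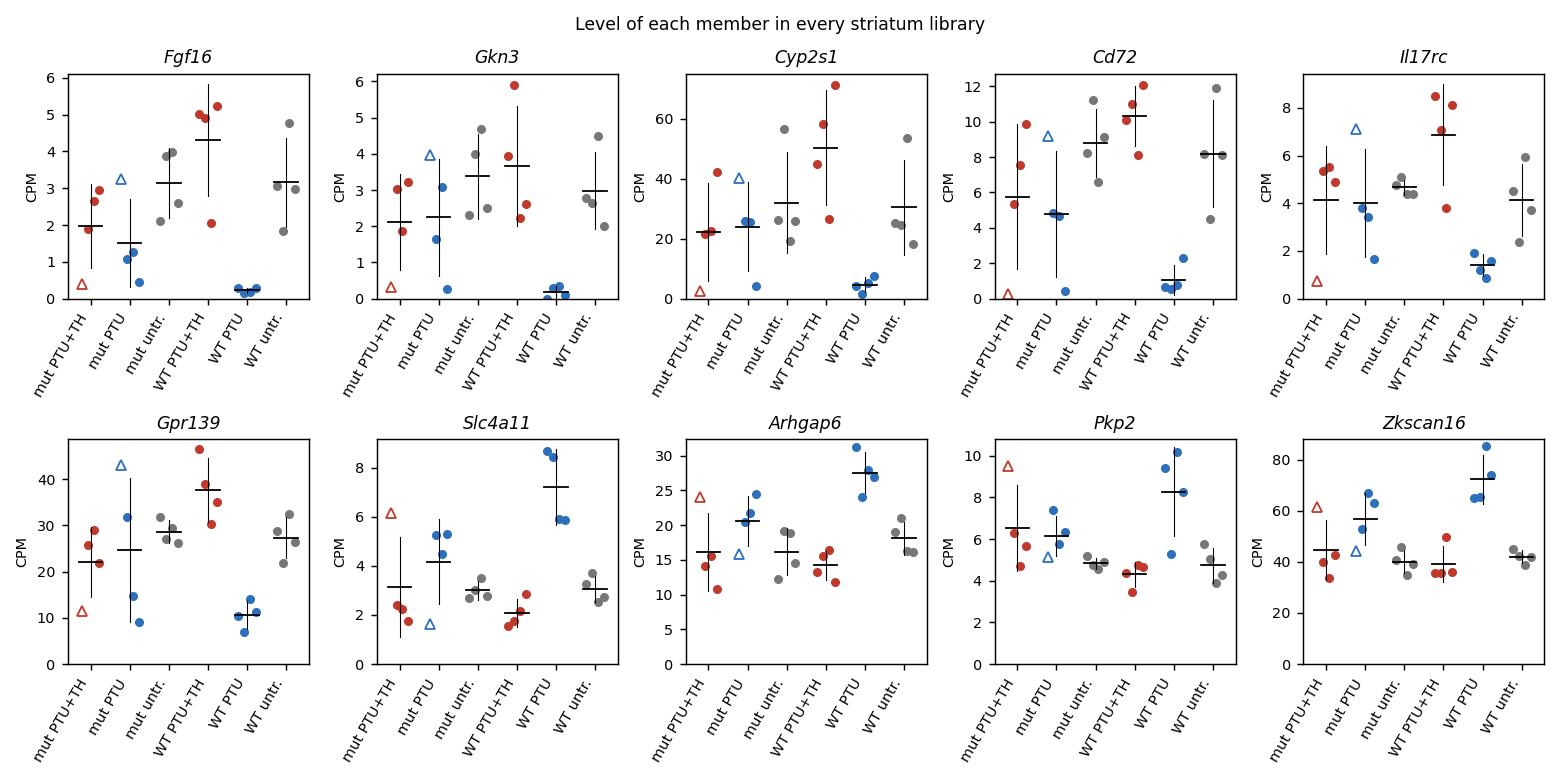
CPM of each of the 10 genes (y axis, own scale per panel) in every striatum library, by group (mut, mutant; untr., untreated). Points are libraries, open triangles are the libraries labelled mutant PTU+TH replicate 1 and mutant PTU replicate 1, bars are group means and vertical lines 1 SD. The WT PTU libraries are the low ones for the 6 genes from Fgf16 to Gpr139 and the high ones for the other 4, and the mutant PTU+TH and PTU groups overlap in every panel when all libraries are counted.

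The mutant striatum was not used to choose the genes, and there the 10 genes were tested. None of the 10 was called in PTU+TH against PTU at an adjusted p under 0.05, with edgeR or with DESeq2, nor was any of the 15670 genes (0%) with edgeR; 1 of the 10, Zkscan16, had an unadjusted p under 0.05 (adjusted p = 0.965, edgeR). With all 4 libraries a group, the 2 groups overlapped for all 10 genes, and 2.22% of all genes did not overlap.

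Fgf16 shows the spread behind this. It had 0.409, 1.89, 2.66 and 2.95 CPM in mutant PTU+TH striatum, against 3.24, 1.08, 1.28 and 0.440 CPM in mutant PTU striatum, so the lowest PTU+TH library and the highest PTU library were both a replicate 1. The log2 change was 0.39 (SE 0.489, adjusted p = 0.965, edgeR quasi-likelihood test). Cd72 had 0.245, 5.37, 7.55 and 9.87 CPM in mutant PTU+TH striatum, against 9.18, 4.82, 4.69 and 0.440 CPM in mutant PTU striatum, and its log2 change was 0.26 (SE 0.581). Cd72 thus ran from its lowest level of all striatum libraries to within its WT PTU+TH range inside the group labelled mutant PTU+TH. Cyp2s1 had 2.62, 21.6, 22.5 and 42.4 CPM in mutant PTU+TH striatum, against 40.2, 25.9, 25.7 and 4.32 CPM in mutant PTU striatum, a log2 change of -0.11 (SE 0.575). Gkn3 had 0.327, 3.03, 1.86 and 3.21 CPM in mutant PTU+TH striatum, against 3.96, 1.66, 3.09 and 0.264 CPM in mutant PTU striatum, a log2 change of -0.07 (SE 0.551). In both genes a PTU library, replicate 4, and a PTU+TH library, replicate 1, were low together.

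Il17rc was more even among the other libraries: 0.736, 5.37, 5.51 and 4.89 CPM in mutant PTU+TH striatum, against 7.11, 3.81, 3.41 and 1.67 CPM in mutant PTU striatum, a log2 change of 0.04 (SE 0.419). Gpr139 had 11.5, 25.8, 28.9 and 21.8 CPM in mutant PTU+TH striatum, against 43.1, 31.7, 14.8 and 9.16 CPM in mutant PTU striatum, a log2 change of -0.17 (SE 0.322). For Gpr139, mutant PTU replicates 1 and 2 were above every mutant PTU+TH library. The sum of thalamus and habenula markers was 91.8 to 585 CPM in mutant PTU+TH libraries, with the 585 CPM in replicate 4, and 90.7 to 118 CPM in mutant PTU libraries; its part in the Gpr139 levels was not tested.

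Among the hormone-low genes, Slc4a11 had 6.14, 2.42, 2.22 and 1.77 CPM in mutant PTU+TH striatum, against 1.62, 5.25, 4.47 and 5.28 CPM in mutant PTU striatum, a log2 change of -0.41 (SE 0.332). Arhgap6 had 24.0, 14.1, 15.6 and 10.8 CPM in mutant PTU+TH striatum, against 15.8, 20.5, 21.7 and 24.5 CPM in mutant PTU striatum, a log2 change of -0.35 (SE 0.191). In both genes, each group had 3 libraries on the side seen in WT and 1 on the other. Zkscan16 had 61.4, 40.1, 33.9 and 42.9 CPM in mutant PTU+TH striatum, against 44.2, 53.0, 66.9 and 63.2 CPM in mutant PTU striatum, a log2 change of -0.35 (SE 0.158). Pkp2 had 9.49, 6.28, 4.71 and 5.65 CPM in mutant PTU+TH striatum, against 5.13, 7.41, 5.75 and 6.34 CPM in mutant PTU striatum, a log2 change of 0.08 (SE 0.205). For Pkp2 replicates 2, 3 and 4 of both groups still overlapped, at 4.71 to 6.28 CPM in mutant PTU+TH and 5.75 to 7.41 CPM in mutant PTU striatum.

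Without the 2 libraries that lay against their labels, the log2 changes of PTU+TH against PTU in mutant striatum were 1.40 for Fgf16 (SE 0.427), 1.18 for Cd72 (SE 0.491), 0.80 for Il17rc (SE 0.329), 0.71 for Gkn3 (SE 0.540), 0.62 for Cyp2s1 (SE 0.551) and 0.43 for Gpr139 (SE 0.292). For the hormone-low genes they were -1.25 for Slc4a11 (SE 0.231), -0.74 for Arhgap6 (SE 0.173), -0.67 for Zkscan16 (SE 0.145) and -0.25 for Pkp2 (SE 0.208). None of the 10 was called in that fit either, with adjusted p of 0.371 for Slc4a11 to 0.865 for Cyp2s1, and no gene of the whole table was called; 6 of the 10 had an unadjusted p under 0.05. The same 6 did not overlap between replicates 2 to 4 of PTU+TH and PTU, against 10.9% of all genes: Fgf16, Cd72 and Il17rc were above in PTU+TH, and Slc4a11, Arhgap6 and Zkscan16 were below. Slc4a11, for one, had 1.77 to 2.42 CPM in mutant PTU+TH and 4.47 to 5.28 CPM in mutant PTU striatum. Because the libraries were set aside for the levels of these very genes, the direction of the remaining values is a description and supports nothing.

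In mutant PTU against untreated, 0 of 10 genes and 0% of all genes were called by edgeR, with 0 of 10 by DESeq2 and 2 of 10 at an unadjusted p under 0.05: Zkscan16, at 0.50 (SE 0.159, adjusted p = 0.491), and Fgf16, at -1.06 (SE 0.476, adjusted p = 0.491). Zkscan16 had 44.2, 53.0, 66.9 and 63.2 CPM in mutant PTU striatum, against 40.8, 45.7, 34.8 and 39.4 CPM in mutant untreated striatum, where only replicate 1 of PTU fell within the untreated range. In mutant PTU+TH against untreated, 0 of 10 and 0% of all genes were called by edgeR and 0 of 10 by DESeq2, with 1 of 10 at an unadjusted p under 0.05, Pkp2, at 0.43 (SE 0.209, adjusted p = 0.997). With all libraries, the 10 genes overlapped in both contrasts, where 4.35% of all genes in PTU against untreated and 2.18% in PTU+TH against untreated did not. Without the 2 libraries that lay against their labels 0 of 10 were called in both contrasts, with log2 changes of -1.74 to 0.76 in PTU against untreated and -0.49 to 0.20 in PTU+TH against untreated. In PTU against untreated, 7 of 10 then had an unadjusted p under 0.05, and 7 of 10 did not overlap, against 12.6% of all genes: Slc4a11, Arhgap6, Pkp2 and Zkscan16 were above in PTU, and Fgf16, Cd72 and Il17rc were below. In PTU+TH against untreated, 1 of 10, Slc4a11, had an unadjusted p under 0.05 and did not overlap, against 5.78% of all genes. These counts, too, describe libraries that remained after a choice made on the same genes. The log2 changes of WT and mutant were not tested against each other in striatum, because the WT side chose the genes.

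Untreated mutant against WT striatum gave 0 of 10 genes called by edgeR and by DESeq2, 0 of 10 at an unadjusted p under 0.05, and 0% of all genes called by edgeR. The log2 differences ran from -0.16 for Arhgap6 (SE 0.193) to 0.19 for Gkn3 (SE 0.523), and the SE of Gkn3 left its difference poorly fixed. Mean levels were 3.14 ± 0.941 CPM in mutant and 3.17 ± 1.21 CPM in WT striatum for Fgf16, and 40.2 ± 4.46 CPM in mutant and 42.0 ± 2.49 CPM in WT striatum for Zkscan16 (SD, n = 4 each). Ranked by group mean over the 6 striatum groups, neighbours overlapped throughout, except that WT PTU stood apart at the bottom for Fgf16 and at the top for Slc4a11. Without the 2 libraries that lay against their labels, mutant PTU also stood apart from its next higher neighbour for Fgf16 and Cd72 and from its next lower neighbour for Slc4a11 and Zkscan16, and mutant PTU+TH stood apart at its upper side for Slc4a11.

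**Figure D3:**
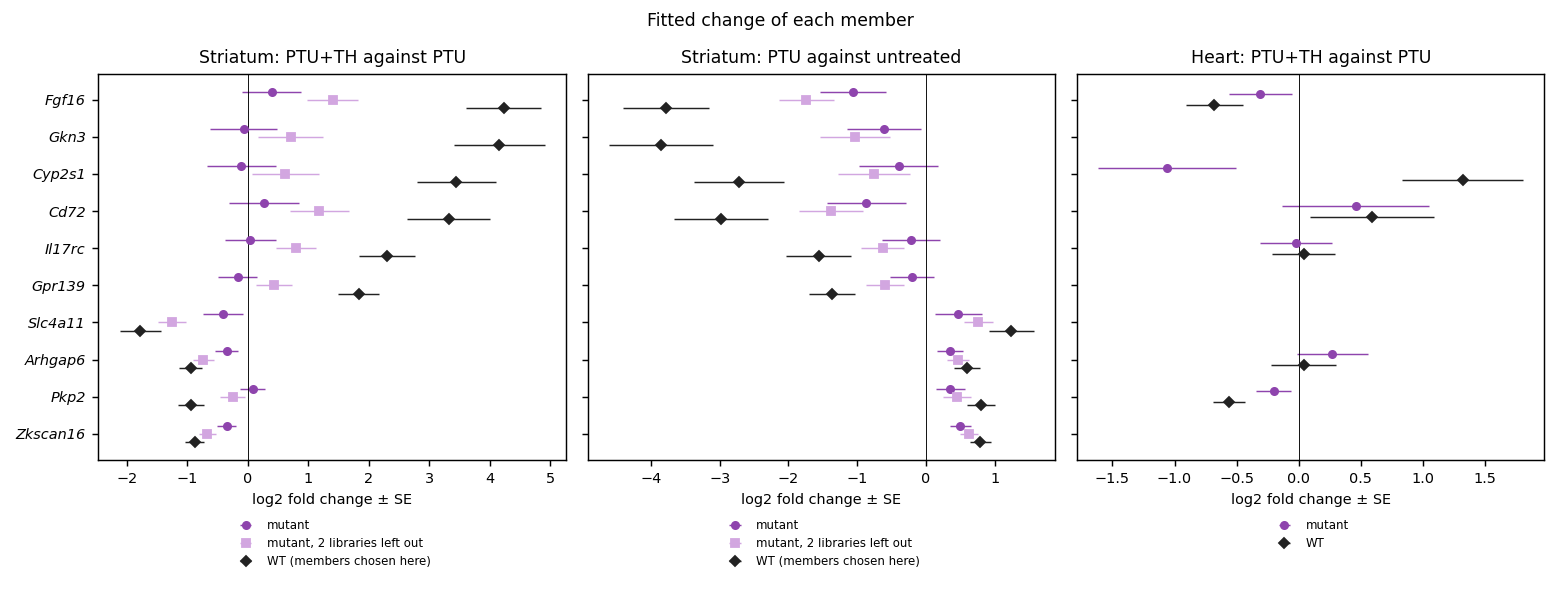
Log2 fold change (x axis, error bars 1 SE) of each gene (y axis): PTU+TH against PTU in striatum (left), PTU against untreated in striatum (middle) and PTU+TH against PTU in heart (right, the 6 genes that passed the heart filter). Circles are mutant, squares are mutant without the 2 libraries that lay against their labels, diamonds are WT; in striatum the WT values for Fgf16 and Gkn3 reach 4.23 and 4.16, while those of all mutant libraries lie at 0.39 and -0.07.

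Across the 12 mutant striatum libraries, which the choice did not use, the genes still varied together. The 15 pairs of hormone-high genes had Pearson correlations of log2 CPM from 0.77 to 0.97 with a median of 0.87, and the 6 pairs of hormone-low genes had 0.46 to 0.85 with a median of 0.68. The 24 pairs of 1 gene of each kind ran from -0.85 to -0.50 with a median of -0.69. Over the 10 libraries without the 2 that lay against their labels, the medians were 0.84 (0.66 to 0.93) for hormone-high pairs, 0.63 (0.25 to 0.90) for hormone-low pairs and -0.52 (-0.78 to -0.31) for pairs of 1 gene of each kind. The points share libraries and treatment groups. Pairs of other genes were not correlated over these libraries, so the values are not read as particular to the 10 genes.

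Over all 24 striatum libraries, which include those that chose the genes, the closest patterns among all genes were those of Ace for Cyp2s1 (Pearson r of log2 CPM 0.98), Fgf16 (0.95) and Il17rc (0.94); Ace encodes angiotensin-converting enzyme. Cd72 was closest to Cyp46a1 (0.98), the brain cholesterol 24-hydroxylase, and to Sema7a (0.97), a membrane-anchored semaphorin. Gkn3 was closest to Gbp3 (0.96) and Slfn5 (0.94), and Gpr139 to Sgpp2 (0.95) and Me2 (0.95). The second genes were C030013G03Rik for Fgf16 (0.95), Flywch2 for Cyp2s1 (0.96) and Kcnk1 for Il17rc (0.93). Hormone-low genes had lower values: Slc4a11 and Arhgap6 were close to each other (0.87), and next to 2310075C17Rik (0.88) and Strip2 (0.86). Zkscan16 was closest to Tmem131l (0.86) and Col6a2 (0.85), and Pkp2 to Atp13a5 (0.84) and to Zkscan16 (0.80).

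In WT striatum, where 0.459% of all genes were called, none of the other members tested was called in either direction among 5 of the FGF9 subfamily and FGF receptors, 3 IL-17 receptors, 6 desmosome genes, 6 SLC4 transporters, 9 retinoid metabolism genes and 10 ZKSCAN zinc finger genes, and the 2 other gastrokines did not pass the filter. List medians lay between -0.31 and 0.10 on the log2 scale, against -0.01 over all genes. Of 18 brain genes known to rise with TH, 3 were called higher and none lower: Sema7a (1.46, SE 0.270), Nrgn (1.10, SE 0.197) and Kcnj10 (1.04, SE 0.230), the last an inward rectifier potassium channel of glia. Of 7 known to fall, the cold-inducible RNA-binding protein gene Cirbp was called lower (-0.77, SE 0.164). The lists were chosen with earlier results of these data known, so these counts are a description and support nothing. In mutant striatum none of these genes was called in any contrast, and 0% of all genes were called there, so nothing is read from this about the lists.

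In heart, 6 of the 10 genes could be tested, and Pkp2 was the one called in WT PTU+TH against PTU. It had 122, 120, 127 and 116 CPM in WT PTU+TH hearts, against 182, 183, 186 and 162 CPM in WT PTU hearts. The groups did not overlap, and the log2 change was -0.56 (SE 0.131, adjusted p = 0.00599, edgeR quasi-likelihood test). Untreated WT hearts lay between, at 155, 157, 139 and 143 CPM. This was 1 of 6 genes tested and called, where the fit called 11.4% of all 14156 genes; without the filter on low counts the call was lost (adjusted p = 0.104). In mutant hearts Pkp2 had 141, 127, 107 and 128 CPM with PTU+TH, against 124, 151 and 160 CPM with PTU, a log2 change of -0.20 (SE 0.141, adjusted p = 0.918). The genotype difference in the response was 0.35 (SE 0.193, adjusted p = 1), so the 2 responses were not shown to differ. Of 5 other desmosome genes tested in WT hearts, none was called.

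Fgf16 had 10.3, 13.3, 10.5 and 11.3 CPM in WT PTU+TH hearts, against 26.4, 16.0, 12.9 and 17.3 CPM in WT PTU hearts, overlapping between 12.9 and 13.3 CPM. The log2 change was -0.68 (SE 0.229, adjusted p = 0.0565) and missed the threshold; it was called by DESeq2 (adjusted p = 0.0428), without the filter (0.0289) and without WT PTU replicate 3 (0.0307). Mutant hearts had 8.89, 9.06, 11.6 and 10.7 CPM with PTU+TH, against 8.08, 12.9 and 16.6 CPM with PTU, at -0.31 (SE 0.254, adjusted p = 0.972). Whether the response of Fgf16 differs between tissues was testable in mutants only, where the difference of striatum over heart was 0.70 (SE 0.538, adjusted p = 1), and 1.72 (SE 0.492, adjusted p = 0.41) without the 2 striatum libraries that lay against their labels.

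Cyp2s1 gave opposite signs in the genotypes. It had 0.860, 0.321, 1.08 and 1.70 CPM in mutant PTU+TH hearts, against 1.35, 1.04 and 3.82 CPM in mutant PTU hearts, a log2 change of -1.06 (SE 0.554, adjusted p = 0.775). WT hearts had 2.23, 2.08, 3.46 and 1.58 CPM with PTU+TH, against 1.19, 1.63, 0.284 and 0.613 CPM with PTU, at 1.32 (SE 0.488, adjusted p = 0.0874), a change that was called without the filter (adjusted p = 0.00582) and without WT PTU replicate 2 (0.0462). The difference between the responses, mutant minus WT, was -2.38 (SE 0.738, adjusted p = 0.365), not called among the 0.29% of genes that were. Without the filter it was called, at an adjusted p of 0.0027. The mutant PTU group rests on 64 counts in 3 libraries, 39 of them in replicate 3.

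Cd72, Il17rc and Arhgap6 were not called in any heart contrast. Cd72 had 0.714, 1.22, 0.556 and 0.753 CPM in WT PTU+TH hearts, against 0.965, 0.523, 0.398 and 0.153 CPM in WT PTU hearts, at 0.59 (SE 0.501, adjusted p = 0.55). The 7 B cell markers, which include Ighm, summed to 61.7 to 90.1 CPM in WT PTU+TH hearts and 4.14 to 6.39 CPM in WT PTU hearts. This sum is not split by gene here, and the part of B cell RNA in the Cd72 level was not tested. Il17rc had 4.11, 2.30, 3.58 and 2.33 CPM in WT PTU+TH hearts, against 3.35, 3.07, 2.84 and 2.68 CPM in WT PTU hearts, at 0.04 (SE 0.251). Arhgap6 was at 4.02, 4.10, 6.17 and 5.05 CPM in WT PTU+TH hearts, against 6.16, 4.38, 4.32 and 3.98 CPM in WT PTU hearts, at 0.04 (SE 0.262). Hccs, which shares exon bases with Arhgap6 on the opposite strand, was called higher (1.05, SE 0.224, adjusted p = 0.00255, edgeR).

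The 4 genes below the heart filter were low, with 94 counts for Gkn3, 36 for Zkscan16, 34 for Slc4a11 and 2 for Gpr139 over 22 libraries. Gkn3 had 4, 9, 7 and 4 counts in WT PTU+TH hearts, against 2, 2, 3 and 1 in WT PTU hearts, with no overlap in CPM. Its mutant hearts had 5, 8, 8 and 7 counts with PTU+TH, against 4, 1 and 1 with PTU, again without overlap in CPM. Non-overlap there was seen for 14.7% of the genes that passed the filter, which Gkn3 did not. Zkscan16 had 1, 1, 0 and 0 counts in WT PTU+TH hearts, against 3, 4, 11 and 4 in WT PTU hearts and 0 in all 4 untreated WT hearts. Non-overlap in either direction was seen for 3 of the 10 genes in WT PTU+TH against PTU hearts, Gkn3 higher and Pkp2 and Zkscan16 lower. It was seen for 18.4% of the genes that passed the heart filter, which Gkn3 and Zkscan16 did not, so these shares are of unlike sets. Among the members that passed, Pkp2 alone did not overlap. When the filter was left out, Zkscan16 was called lower in WT PTU+TH against PTU hearts (-2.88, SE 0.931, adjusted p = 0.0425) and higher in WT PTU against untreated hearts (adjusted p = 0.00242), while Gkn3 was not (adjusted p = 0.109). A gene that passes by being high in 1 group only is bound to differ, and both tests rest on few counts.

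**Figure D4:**
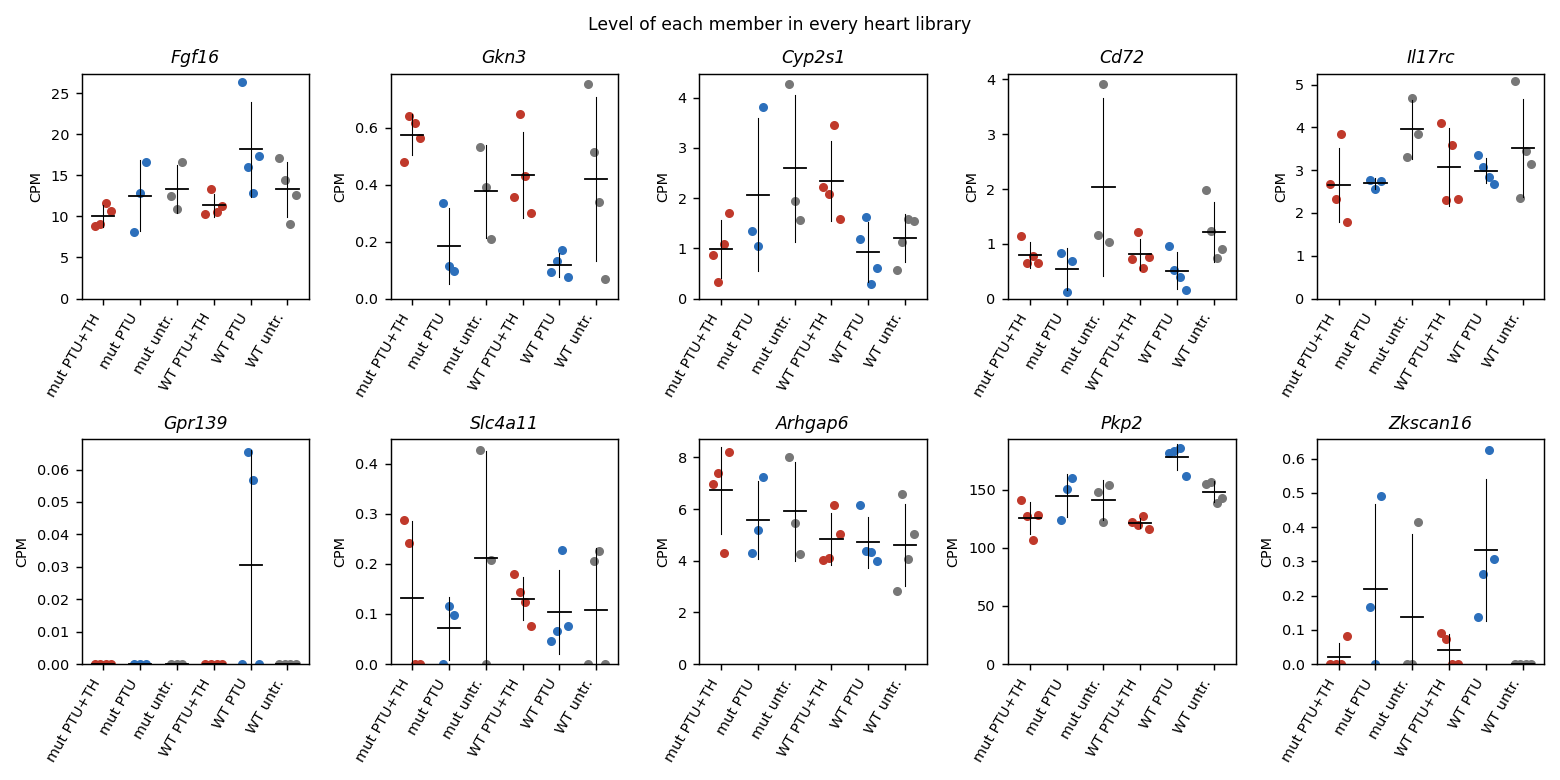
CPM of each of the 10 genes (y axis, own scale per panel, from 0) in every heart library, by group (mut, mutant; untr., untreated). Points are libraries, bars are group means and vertical lines 1 SD. Pkp2 separates WT PTU+TH (116 to 127 CPM) from WT PTU (162 to 186 CPM), and Gpr139 has counts in 2 libraries only.

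The remaining heart contrasts added no call by edgeR among the 6 genes tested. In WT PTU against untreated hearts 0 of 6 were called, against 4.9% of all genes, with 0 by DESeq2 and only Cd72 at an unadjusted p under 0.05 (-1.12, SE 0.487, adjusted p = 0.211). In WT PTU+TH against untreated hearts 0 of 6 were called, against 2.03%, with 0 by DESeq2 and only Pkp2 at an unadjusted p under 0.05 (-0.29, SE 0.131, adjusted p = 0.276). Mutant PTU+TH against PTU gave 0 of 6 by both tools, against 0.41% by edgeR, and 0 at an unadjusted p under 0.05. Mutant PTU against untreated gave 0 of 6 by both tools, against 13.8% by edgeR, and Cd72 alone had an unadjusted p under 0.05 (-1.51, SE 0.634, adjusted p = 0.105). That 13.8%, or 1952 genes, was not stable. It became 85 genes without mutant untreated replicate 2, the library of lowest depth, and 3163 without mutant untreated replicate 1. Mutant PTU+TH against untreated gave 0 of 6, against 22% of all genes. There Cyp2s1 alone had an unadjusted p under 0.05 (-1.44, SE 0.567, adjusted p = 0.0701), and it was called by DESeq2 (adjusted p = 0.0492), without the filter (0.0103) and without mutant PTU+TH replicate 4 (0.0479). In PTU+TH hearts, mutant against WT gave 0 of 6 by both tools, against 0.0141% by edgeR, with Cyp2s1 alone at an unadjusted p under 0.05 (-1.24, SE 0.504, adjusted p = 0.319). The genotype difference in the response gave 0 of 6 by both tools, against 0.29% by edgeR, with Cyp2s1 alone at an unadjusted p under 0.05.

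Between tissues, 9 of the 10 genes were called in untreated mutant mice and 9 in untreated WT mice, where 75.3% and 79.9% of all 17346 genes were called. Gkn3, Gpr139, Slc4a11 and Zkscan16 had not passed the heart filter and entered the joint fit through their striatal counts, so a difference was built in for them and their 4 calls support nothing. Whether both tissues were sequenced together is not given in the sources used here. Pkp2, as a gene of the heart muscle junction, was lower in striatum, with a log2 change of -5.65 in mutant mice (SE 0.191, adjusted p = 2.41e-27) and of -5.78 in WT mice (SE 0.188, adjusted p = 1.89e-28, edgeR). Fgf16 was also lower in striatum, at -2.90 in mutant mice (SE 0.371) and -2.88 in WT mice (SE 0.345). Cyp2s1 was higher in striatum, at 2.73 in mutant mice (SE 0.683) and 3.78 in WT mice (SE 0.616). Slc4a11 was higher by 2.63 in mutant mice (SE 0.652) and 3.85 in WT mice (SE 0.581).

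Gkn3 was higher in striatum by 2.37 in mutant mice (SE 0.727) and 2.08 in WT mice (SE 0.566). For Cd72 the change was 1.66 in mutant mice (SE 0.682) and 1.98 in WT mice (SE 0.566), and for Arhgap6 it was 0.65 in mutant mice (SE 0.269) and 1.16 in WT mice (SE 0.234). Both calls in mutant mice were lost without certain single libraries. Cd72 was not called without heart mutant untreated replicate 1 or 3 (adjusted p = 0.122 and 0.141), and Arhgap6 was not called without replicate 2 or 3 of the mutant untreated hearts (0.0598 and 0.222) or of the mutant untreated striata (0.0626 and 0.0782). Gpr139 had 1264 counts in 4 untreated mutant striata and 0 in 3 mutant hearts, at least 203-fold higher in CPM of the summed counts against a floor of 3 counts over the heart group. In WT mice it had 1227 counts in 4 striata and 0 in 4 hearts, at least 474-fold higher. Zkscan16 had 1751 counts in mutant striata and 4 in mutant hearts, all in replicate 3, and the fitted log2 change was 6.91 (SE 0.457). In WT mice Zkscan16 had 1899 counts in striata and 0 in hearts, at least 733-fold higher. Il17rc was not called in either genotype, at -0.50 in mutant mice (SE 0.411, adjusted p = 0.266) and -0.58 in WT mice (SE 0.357, adjusted p = 0.131).

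The tissue difference in the mutant response to TH gave 0 of 10 genes called by edgeR, against 0.0577% of all genes, 0 by DESeq2 and 1 at an unadjusted p under 0.05, Zkscan16 (2.71, SE 1.15, adjusted p = 0.951). Gkn3, Gpr139, Slc4a11 and Zkscan16 had entered the joint fit through their striatal counts, so their heart response could hardly be measured. Gpr139 had 0 counts in mutant PTU and PTU+TH hearts. For Zkscan16 the heart side rests on 7 counts with PTU and 1 with PTU+TH. Without the 2 striatum libraries that lay against their labels 0 of 10 were called, 3 of 10 had an unadjusted p under 0.05 (Fgf16, Arhgap6 and Zkscan16), and the Zkscan16 value was 2.40 (SE 1.08, adjusted p = 1). The same difference in WT mice was not tested, because WT striatum chose the genes.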

How the data were processed

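Per the labels, RNA of 22 heart and 24 striatum samples was made into CORALL V2 libraries. The authors deposited whole-number read counts per gene, with 5 further lines in each file for unassigned reads (27.66 to 48.03% of reads in heart, 20.66 to 29.26% in striatum), which were left out. Per the submitters' processing notes, Bowtie2, HTSeq and build GRCm39 were used; the versions, the strand setting and any use of molecular identifiers were not stated. The label of heart mutant PTU+TH replicate 1 lacks the 24 hours.

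Each tissue was fitted with 1 coefficient per group (edgeR 4.0.16, R 4.3.3, TMM scaling, filterByExpr with minimum count 10, two-sided quasi-likelihood F test). This left 15670 genes in striatum and 14156 in heart; a joint fit of 46 libraries and 17346 genes served the tissue comparisons. A call is an adjusted p under 0.05 (Benjamini-Hochberg, over all genes tested) in 15 comparisons. The WT striatum contrasts chose the genes, which were not tested there. The scripts were tested on simulated data. Alternatives were DESeq2 1.42.0, its size factors in edgeR, no filter, the compared groups alone, a replicate block and each library left out; leaving out both striatum libraries that lay against their labels was chosen after seeing the data. None of 66 pairs of libraries of 1 group agreed within sampling noise.

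The genes, lists and tests were chosen with earlier results of these data known. Named genes are the 10, list members called in a comparison (up to 4 by size) and the 2 genes closest to each by Pearson r. Genes with overlapping exons were also named, Tesk1 and Hccs after their values were seen. The labels do not say that replicate numbers pair samples, yet same-numbered libraries correlated above 0.1 in every pair in WT hearts for PTU+TH against PTU (0.12 to 0.28) and for PTU against untreated (0.10 to 0.60). Exon overlaps (GENCODE M21) and promoters (RefSeq) are on GRCm38 and were used for no count.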

Additional observations from a re-analysis of the deposited data

Results flagged for a closer look

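Among 96 groups of 4 libraries, 8 held a library whose gap to its nearest neighbour exceeded Dixon's 95% critical value as a share of the group's range; chance gives about 1 in 20. Of these 8, 2 fell in the library labelled striatum mutant PTU+TH replicate 1: Il17rc at 0.736 CPM, where the others had 4.89 to 5.51, and Slc4a11 at 6.14 CPM, where the others had 1.77 to 2.42. WT striatum PTU+TH replicate 3 held 2 more: Fgf16 at 2.05 CPM, where the others had 4.92 to 5.24, and Zkscan16 at 49.8 CPM, where the others had 35.6 to 35.9. In WT striatum PTU replicate 4, Cd72 stood at 2.29 CPM, where the others had 0.528 to 0.771.

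In heart, Pkp2 was low in WT PTU replicate 4, at 162 CPM, where the others had 182 to 186. Slc4a11 stood at 0.227 CPM in WT PTU replicate 3, where the others had 0.046 to 0.0766, which is 4 counts against 1 in each. Zkscan16 stood at 0.0807 CPM in mutant PTU+TH replicate 4, a single count, where the others had 0.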

How the results depend on the processing

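In the 3 mutant striatum contrasts and in untreated mutant against WT striatum, 0 of 10 genes were called under every alternative run (DESeq2, its size factors, no filter, the compared groups alone, a replicate block, each library left out, and, for the mutant contrasts, without both libraries that lay against their labels). In WT hearts, PTU+TH against PTU called 1 gene, against 3 without the filter (Fgf16, Cyp2s1 and Zkscan16), 2 with DESeq2 and 1 to 2 when 1 library was left out. No gene was called (0), against 1 without the filter, in WT PTU against untreated hearts (Zkscan16) and in the heart genotype difference in the response (Cyp2s1). In mutant PTU+TH against untreated hearts 0 were called, against 1 without the filter, 1 with DESeq2 and 0 to 1 when 1 library was left out. Untreated mutant striatum against heart gave 9, and 7 to 9 when 1 library was left out. The cause of these moves was not tested. Of values for single genes, 1605 stayed on their side of the threshold, 9 passed it, 7 lost it and 0 called ones changed sign. Among uncalled values, signs changed in 91 with 1 library left out, 10 without both libraries, 3 with the block, 1 with DESeq2 and 1 without the filter. The replicate block gave 0 in mutant striatum PTU+TH against PTU and 1 in WT heart PTU+TH against PTU, and changed no other count of the 10 genes.

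Counts over all genes in heart moved more. Mutant against WT in PTU+TH hearts called 2 genes, against 39 without the filter, 132 with DESeq2 and 857 with the compared groups alone. Mutant PTU+TH against PTU called 58, against 151 without the filter, 133 with DESeq2 and 240 with the compared groups alone. WT PTU+TH against untreated called 288, against 575 without the filter, 518 with DESeq2 and 161 with the compared groups alone. With the compared groups alone, WT PTU against untreated called 194, against 694, and mutant PTU against untreated called 377, against 1952. With 1 library left out, counts ran from 85 to 3163 in mutant PTU against untreated, 15 to 106 in mutant PTU+TH against PTU, 1173 to 3902 in mutant PTU+TH against untreated (3118 with all), 121 to 302 in WT PTU+TH against untreated, 483 to 1069 in WT PTU against untreated, 0 to 3 in mutant against WT PTU+TH hearts, 11 to 68 in the genotype difference and 3 to 37 in the tissue difference. The genotype difference called 41, against 136 without the filter and 87 with DESeq2, and the tissue difference 10, against 61 without the filter and 33 with DESeq2. In mutant striatum, leaving out the filter called 3 genes in PTU against untreated and 8 in PTU+TH against untreated, against 0 in both. Low counts of Gkn3, Slc4a11, Gpr139 and Zkscan16 limit what can be seen in heart.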
